A study of Mus musculus with 58 samples.

Results

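Cytosolic ribosomal protein genes were chosen by name alone, as the genes of the count table whose symbol starts with Rpl or Rps followed by a number, together with Rpsa, Rplp0, Rplp1, Rplp2 and Fau. Symbols that contain -ps, which mark pseudogenes, were left out (9 genes), as were the kinase and binding protein genes that start with Rps6k or Rps19bp (11 genes). The rule found 86 of the 15171 genes listed, and no measured value entered it. They hold 77 of the 79 standard subunit genes, 45 of the large and 32 of the small subunit, and 9 paralogs or near copies (Rpl22l1, Rpl32l, Rpl36al, Rpl37rt, Rpl6l, Rpl7l1, Rps27l, Rps27rt and Rps4l). Rpl39 was not analysed here.

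RNA was sequenced from the cortex and hippocampus at the injury site together, of 58 mice in 8 groups of 6 to 8 animals of both sexes. All mice were on a C57BL/6 background and had human APOE3 or human APOE4 in place of the mouse Apoe gene. They carried 2 functional copies of Abca1, which codes for the transporter that loads lipid onto APOE (E3/Abca1+/+ and E4/Abca1+/+), or 1 functional copy (E3/Abca1+/- and E4/Abca1+/-). Surgery took place at 3 months of age and tissue was taken 14 days later. TBI mice had a controlled cortical impact (CCI) over the left parietal cortex through a craniotomy, and sham mice had the craniotomy and anesthesia without the impact. The sham and TBI groups held 8 and 8 E3/Abca1+/+ mice, 7 and 6 E3/Abca1+/- mice, 7 and 7 E4/Abca1+/+ mice, and 7 and 8 E4/Abca1+/- mice. Each library came from a separate mouse.

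A ribosome is built from ribosomal RNA and a fixed set of proteins, with roughly equal numbers of each protein per particle. The small subunit reads the messenger RNA, and the large subunit forms the peptide bond and carries a stalk of acidic proteins that calls in the elongation factors. Messenger RNAs of these proteins begin with a run of pyrimidines, the terminal oligopyrimidine tract, through which the growth kinase complex mTORC1 sets how much of them is translated. In the brain these genes are expressed by neurons and glia alike, and many of them have processed copies elsewhere in the genome.

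Several results changed with the depth of the libraries that were kept. Total counts ran from 4421308 to 37877346 per mouse, with no library between 6984446 and 9715595. Of the 16 libraries under that gap 15 were Abca1+/+ and 1 was Abca1+/-, and 42 libraries lay over it. The median total was 18871446 in the 28 Abca1+/- mice and 8350021 in the 30 Abca1+/+ mice, so depth and Abca1 copies went together in part. The other 15 Abca1+/+ libraries lay over the gap, and several counts below are also given with the libraries over the gap alone. The markers of neurons, astrocytes, oligodendrocytes and microglia were detected in every mouse. The T cell markers Cd3e and Cd3g were not analysed here.

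The starts of several ribosomal protein genes show the tract that gives these transcripts their name. RefSeq promoter sequences (GRCm38.p6), which run from 250 bases before to 50 after each annotated start, matched 64 of the 86 genes. A tract was taken as a C followed by at least 4 further bases that are each C or T, with its C within 5 bases of the start on either side, on the gene's own strand only. It was found in 31 of the 64 genes (48.4%) and in 5687 of 26961 other genes (21.1%). The sequences below are the 15 bases before and the 15 bases from the start, written 5′ to 3′ on the gene's strand with the tract in capitals. Rps9, Rps24, Rps18 and Rplp2 are shown as genes with a tract that rank high by their injury test, Rps6 and Fau for their roles (RefSeq lists a second start for Rps24, with no tract), and Rps3 and Rps4x as genes that also rank high and have no tract in this window.
Rps9 (chr7:3704026-3704055, plus strand): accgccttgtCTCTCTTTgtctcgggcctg
Rps24 (chr14:24490663-24490692, plus strand): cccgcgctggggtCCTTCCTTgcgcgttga
Rps18 (chr17:33955651-33955680, minus strand): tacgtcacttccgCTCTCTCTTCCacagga
Rplp2 (chr7:141447636-141447665, plus strand): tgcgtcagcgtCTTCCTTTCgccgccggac
Rps6 (chr4:86857353-86857382, minus strand): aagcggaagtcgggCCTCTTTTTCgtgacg
Fau (chr19:6057932-6057961, plus strand): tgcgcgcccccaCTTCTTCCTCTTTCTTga
Rps3 (chr7:99483695-99483724, minus strand): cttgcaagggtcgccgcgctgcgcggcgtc
Rps4x (chrX:102189377-102189406, minus strand): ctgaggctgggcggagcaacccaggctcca

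The levels of the 86 genes spread widely, although their proteins sit in the ribosome in like numbers. In CPM, the count of a gene scaled to a common library size with TMM factors, 24 genes had a mean over all mice under 5, 11 a mean of 5 to 20 and 51 a mean over 20. Rpl4 had the highest mean level (319.6 CPM), followed by Rps3 (262 CPM) and Rpl8 (217 CPM). Length was that of 1 GENCODE M21 transcript chosen per gene, such as 500 bases for Rps15 and 2045 for Rpl5. Levels per length depend on that choice. Per length of transcript the highest mean levels were those of Rps15 (419 CPM per kb), Rplp1 (404 CPM per kb) and Rpl8 (255 CPM per kb). The lowest mean levels per length were those of Rpl13 (1.08 CPM per kb), Rps23 (1.76 CPM per kb) and Rpl5 (1.91 CPM per kb). All of these are standard subunits of the ribosome.

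The share of each transcript that is found in no other gene differed between the low and the high genes. The chosen transcript of each gene was split into stretches of 50 bases. A stretch was called unique when no other gene of the GENCODE M21 transcripts holds it on either strand. The median share of unique stretches was 22.2% in the 24 genes under 5 CPM, 29.7% in the 11 genes of 5 to 20 CPM and 56.8% in the 51 genes over 20 CPM. Rpl8, with 92.1% unique stretches, had 217 CPM, while Rpl5, with 6.16% unique stretches, had 3.91 CPM. Other genes went the other way, such as Rps18 with 13.3% unique stretches and 38.2 CPM, and Rps16 with 58.4% and 2.31 CPM. How the authors' counting treated reads that fit several genes is not given in the sources used here, and the part of shared sequence in these levels was not tested.

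**Figure D1:**
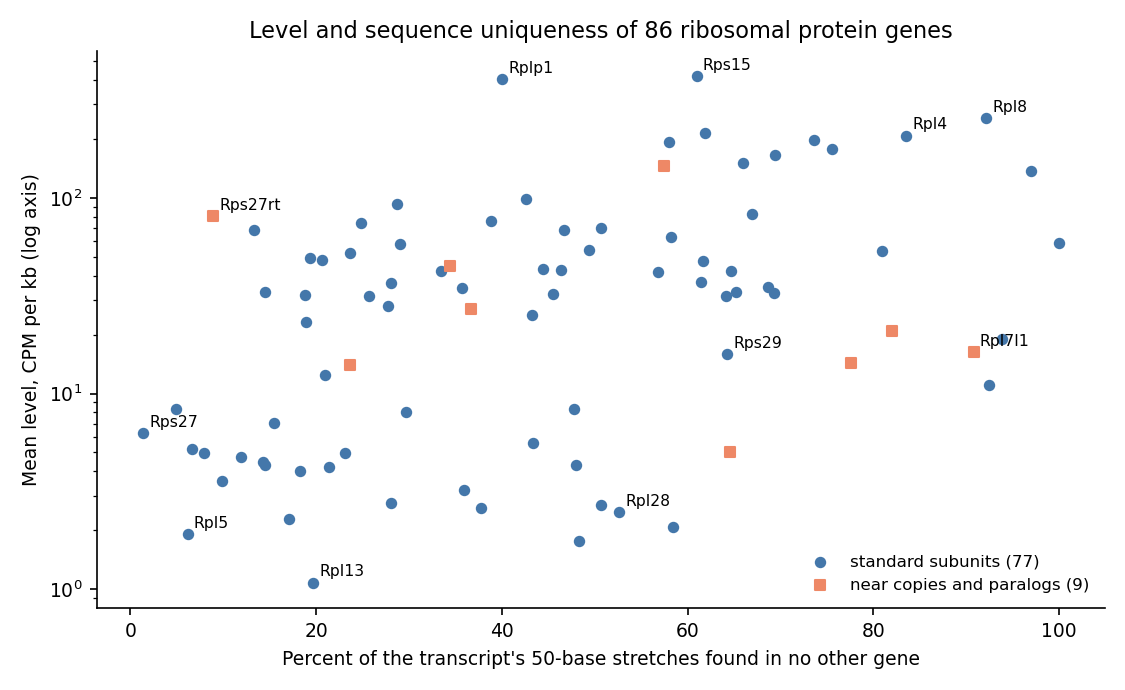
Each point is 1 of the 86 genes, with the percent of its transcript's 50-base stretches found in no other gene on the horizontal axis and its mean level over 58 mice, in CPM per kb on a log axis, on the vertical axis. Blue circles are the 77 standard subunits and orange squares the 9 paralogs and near copies. Rpl13 lies lowest at 1.08 CPM per kb and Rps15 highest at 419 CPM per kb.

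The paralogs and near copies fell into copies that share sequence with their standard gene and paralogs that do not. Rps27rt, which lies on another chromosome than Rps27, holds 98.6% of the 50-base stretches of Rps27, and 91.1% of its own stretches are in Rps27. Its mean level was 30.2 CPM against 2.16 CPM for Rps27. Rpl6l shares 61.8% of its stretches with Rpl6, Rpl37rt 38.7% with Rpl37 and Rpl32l 19.4% with Rpl32. For these 4 pairs the counting could split reads between copy and standard gene, so their separate levels and changes are uncertain. Rps27l, Rpl22l1, Rpl36al, Rps4l and Rpl7l1 share none of their stretches with Rps27, Rpl22, Rpl36a, Rps4x and Rpl7, and had mean levels of 7.14, 24.6, 14.2, 16.4 and 42.6 CPM.

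Between mice of a group most of these genes varied little. The median standard deviation of log2(CPM + 0.5) within groups was 0.15 over the 86 genes and 0.17 over all 15171 genes. Rpl4 was among the steadiest, from 279 to 374 CPM over all 58 mice. Rps29 and Rpl21 varied most, from 1.01 to 38.8 CPM and from 1.62 to 55.6 CPM, and are described with the mice that stood apart. No gene of the 86 had fewer than 2 counts in any mouse.

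After TBI the ribosomal protein genes took a larger share of the counts in every genotype. In E3/Abca1+/+ mice the 86 genes held 0.338% ± 0.0142 (SD, n = 8) of the counts in sham and 0.392% ± 0.0323 (n = 8) in TBI mice, a ratio of 1.16. In E3/Abca1+/- mice they held 0.368% ± 0.0183 (n = 7) and 0.413% ± 0.0268 (n = 6), a ratio of 1.12. In E4/Abca1+/+ mice they held 0.343% ± 0.0131 (n = 7) and 0.385% ± 0.0266 (n = 7), also a ratio of 1.12. The ratio was greatest in E4/Abca1+/- mice, at 1.22, with 0.370% ± 0.0117 (n = 7) in sham and 0.453% ± 0.0161 (n = 8) in TBI mice. The TBI mice that lay above the highest sham mouse of their genotype were 7 of 8 E3/Abca1+/+, 4 of 6 E3/Abca1+/-, 5 of 7 E4/Abca1+/+ and 8 of 8 E4/Abca1+/- mice. In bulk tissue more cells of a type and more RNA per cell cannot be told apart.

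**Figure D2:**
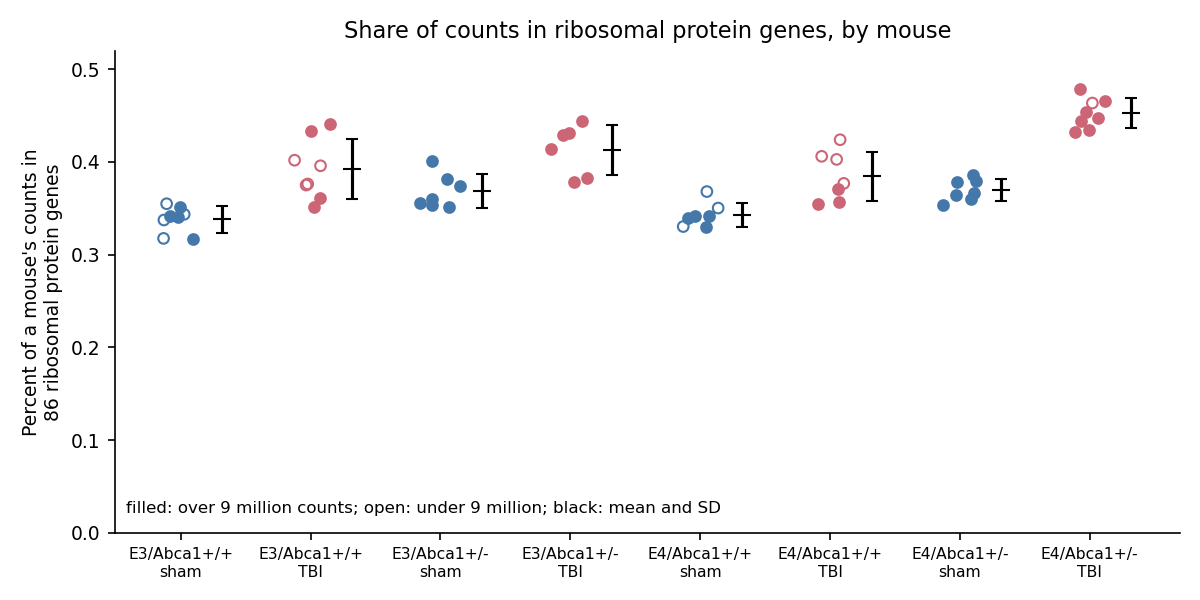
The vertical axis gives the percent of a mouse's counts that fell in the 86 genes, and each point is a mouse, blue for sham and red for TBI, filled for libraries over the gap in total counts and open for those under. Black marks give the group mean and SD. Only in E4/Abca1+/- do all TBI mice lie above all sham mice of the genotype.

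Over all 58 mice, 66 of the 86 genes were higher after TBI and 0 were lower (edgeR's quasi-likelihood test on the mean of the 4 genotypes, adjusted p under 0.05). Of all genes tested, 29.0% were higher and 24.3% were lower in the same comparison. The median log2 fold change was 0.20 over the 86 genes and 0.01 over all genes, and 84 of the 86 genes had a positive value. The 2 others were Rps13, a small subunit protein, at −0.07 (standard error, SE, 0.14), and Rpl15, a large subunit protein, at −0.01 (SE 0.03), neither past the threshold (adjusted p = 0.726 and 0.824). At an unadjusted p under 0.05, 68 of the genes were higher and 0 were lower, while 8772 of all 15171 genes passed in either direction. DESeq2's Wald test called 63 higher and 0 lower, and its background is not given here.

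Both subunits moved. In the large subunit 32 of 45 genes rose, with a median log2 fold change of 0.19, in the small subunit 27 of 32, with a median of 0.21, and 7 of the 9 paralogs and near copies rose. The share of genes called was lowest among genes with low counts, with 10 of 24 genes under 5 CPM, 10 of 11 genes of 5 to 20 CPM and 46 of 51 genes over 20 CPM. The median fold changes of these classes were 0.21, 0.23 and 0.19 on the log2 scale, and the median standard errors 0.10, 0.06 and 0.03. Of the genes with a pyrimidine tract such as those printed above 23 of 31 rose (median 0.21), of those without it 25 of 33 (median 0.18), and of those with no promoter sequence 18 of 22 (median 0.22).

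TBI changed different numbers of these genes in the 4 genotypes, and in each of them every call was higher. In E3/Abca1+/+ mice 23 genes were higher (background 12.5% of all genes) and 0 lower (background 10.8%), with a median log2 fold change of 0.18. In E3/Abca1+/- mice 23 were higher (background 13.7%) and 0 lower (background 10.1%), with a median of 0.15. In E4/Abca1+/+ mice only 3 were higher, which is 3.49% of the 86 genes against a background of 9.08%, and 0 were lower (background 4.98%), although the median was 0.11. In E4/Abca1+/- mice 51 were higher (background 17.7%) and 0 lower (background 16.3%), with a median of 0.24. At an unadjusted p under 0.05 the higher genes were 32, 42, 19 and 62 in the same order and the lower genes 0 in each. Of all 15171 genes 5352, 5228, 4108 and 6528 passed in either direction. DESeq2's Wald test also called 0 lower genes in each.

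The number of calls changed with single mice in all 4 genotypes and with the libraries kept in 2. In E4/Abca1+/+ mice it ran from 2 to 13 as each mouse was left out in turn. It was 13 without TBI mouse 4 (11.2% of all genes higher in that fit) and 7 without TBI mouse 3 (8.63%). It was 7 without sham mouse 4 (8.3%) and 5 without TBI mouse 5 (8.62%). In E3/Abca1+/- mice it ran from 14 without TBI mouse 5 (11.99%) to 31 without TBI mouse 2 (13.7%). The ranges were 17 to 27 in E3/Abca1+/+ and 45 to 52 in E4/Abca1+/- mice. With the libraries over the gap alone the calls numbered 2 for E3/Abca1+/+ and 0 for E4/Abca1+/+, where 3 or 4 mice per group were left. The background of these 2 fits is not given here. Depth and the number of mice changed together there, and their parts cannot be told apart. The difference in injury response between Abca1+/- and Abca1+/+ mice, tested as an interaction over both isoforms, passed the threshold for 0 of the 86 genes (background 0% of all genes), and that between APOE4 and APOE3 mice also for 0 (background 0.00659%). At an unadjusted p under 0.05 there were 2 and 3 such genes, against 401 and 424 of all 15171 genes. DESeq2 called 0 for both. The Abca1 interaction value was positive for 68 of the 86 genes (median 0.06) and for 53.7% of all genes (median 0.01). The isoform interaction value was positive for 49 of the 86 genes (median 0.02) and for 54.3% of all genes (median 0.01). The interaction within a single isoform was not tested.

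**Figure D3:**
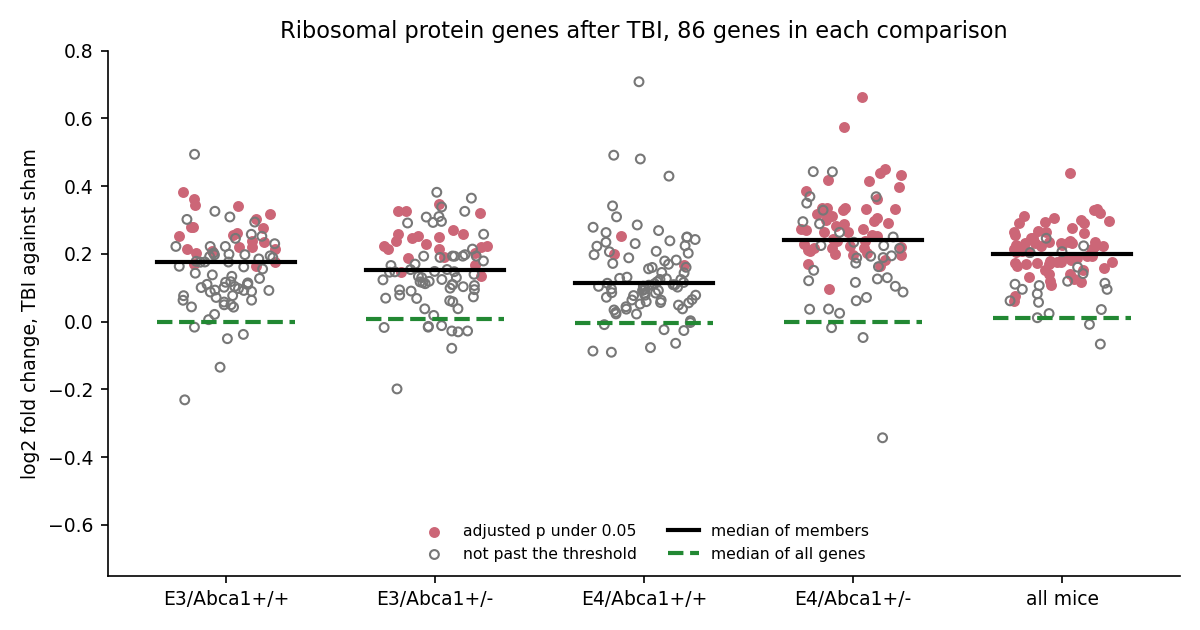
Each point is 1 of the 86 genes, with its log2 fold change of TBI against sham on the vertical axis, for the 4 genotypes and for the mean over all mice. Red points passed the threshold and open points did not, black lines give the median of the 86 genes and dashed green lines that of all 15171 genes. The black lines lie between 0.11 and 0.24 and the green lines near 0.

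A positive fold change was seen in all 4 genotypes for 68 of the 86 genes. Of the 86 genes 3 were called in all 4 genotypes, Rpl7 and Rps20 among them, a further 11 were called in 3 genotypes, 15 in 2, 25 in 1 and 32 in none. These counts were not made over all genes, so whether they exceed a background is not known. Genes for which every TBI mouse lay above every sham mouse of the genotype were counted as well. There were 0 such genes of the 86 in E3/Abca1+/+ mice (background 4.36% of all genes), 7 in E3/Abca1+/- mice (background 6.57%), 0 in E4/Abca1+/+ mice (background 3.76%) and 23 in E4/Abca1+/- mice (background 7.36%). Rpl23 and Rps9 were among them in both Abca1+/- genotypes.

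Rpl7 (gene 19989, chromosome 1, 16101295 to 16104433), a large subunit protein, had the smallest p of the 86 genes over all mice. In E3/Abca1+/+ sham mice it ran from 61.7 to 73.1 CPM with a median of 67.5, and in TBI mice from 70.8 to 86.8 with a median of 81.3. In E4/Abca1+/- mice it ran from 77.5 to 84.1 CPM with a median of 80.4 in sham, and from 93.0 to 107 with a median of 97.6 in TBI mice. The 2 groups overlapped in E3/Abca1+/+ and lay apart in E4/Abca1+/- mice. The log2 fold change was 0.22 (SE 0.05, adjusted p = 0.00324) in E3/Abca1+/+, 0.25 (0.04, adjusted p = 0.0006) in E3/Abca1+/-, 0.17 (0.05, adjusted p = 0.0227) in E4/Abca1+/+ and 0.26 (0.04, adjusted p = 5.01e-05) in E4/Abca1+/- mice, all by edgeR's quasi-likelihood test. Over all mice it was 0.23 (SE 0.02, adjusted p = 6.59e-14).

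Rps9 (gene 76846, chromosome 7, 3703954 to 3706897), a small subunit protein needed for accurate decoding, had the greatest fold change of the 5 genes with the smallest p. It ran from 56.9 to 62.9 CPM with a median of 60.5 in E4/Abca1+/- sham mice and from 74.7 to 87.7 with a median of 80.1 in TBI mice, with no overlap. In E4/Abca1+/+ mice the sham values, 50.6 to 60.1 with a median of 55.8, and the TBI values, 55.8 to 79.2 with a median of 63.5, overlapped. Its log2 fold change over all mice was 0.33 (SE 0.03, adjusted p = 1.8e-12), and within genotypes it was called in all but E4/Abca1+/+, where it was 0.21 (adjusted p = 0.064). Rpl32, of the large subunit, was also among these 5 (log2 fold change 0.24, adjusted p = 8.86e-11). It ran from 75.9 to 86.8 CPM with a median of 80.8 in E4/Abca1+/- sham mice and from 93.1 to 116 with a median of 101 in TBI mice, with no overlap.

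Rps20, which sits at the head of the small subunit, was the member with the smallest p in E4/Abca1+/+ mice. Its values there were 32.5 to 38.3 CPM with a median of 35.4 in sham and 38.0 to 45.8 with a median of 42.2 in TBI mice, so the ranges overlapped at their edges. The log2 fold change was 0.25 (SE 0.05, adjusted p = 0.0046). In E4/Abca1+/- mice Rps20 went from 29.8 to 41.7 CPM with a median of 35.3 in sham to 43.3 to 57.6 with a median of 48.1 in TBI mice, a log2 fold change of 0.45 (SE 0.07, adjusted p = 9.49e-05). The 2 groups did not overlap.

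**Figure D4:**
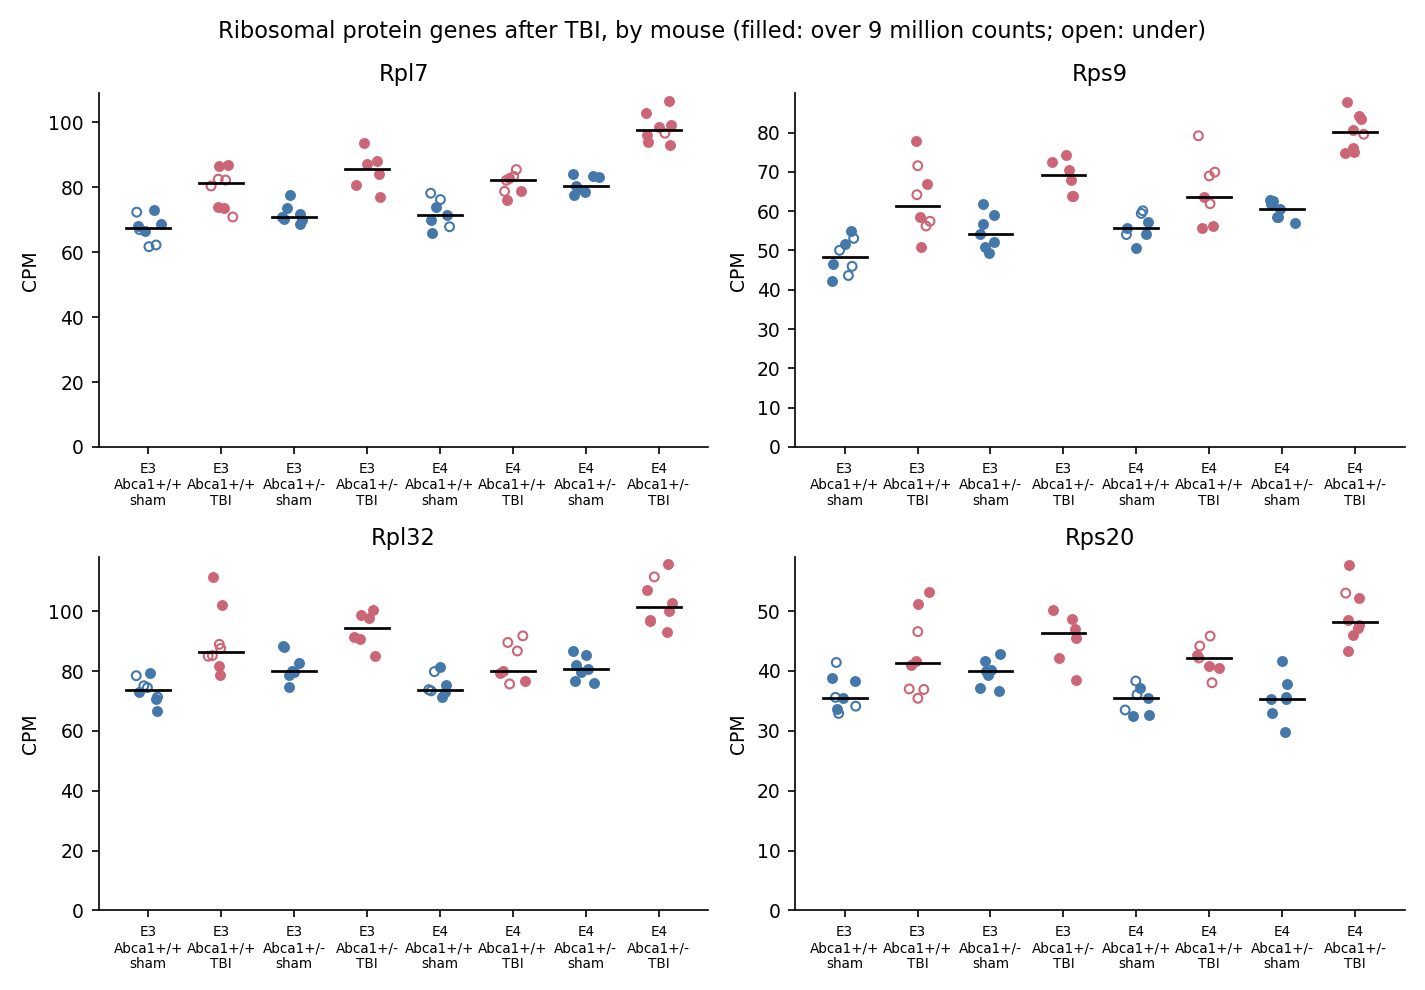
Levels of Rpl7, Rps9, Rpl32 and Rps20 in CPM on axes from 0, with a point for each mouse, blue for sham and red for TBI, filled for libraries over the gap in total counts and open for those under, and a line at each group's median. In E4/Abca1+/- mice all TBI points lie above all sham points for each of the 4 genes.

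Other genes had the smallest p in single genotypes. In E3/Abca1+/+ mice Rps24, a small subunit protein, led with a log2 fold change of 0.34 (SE 0.06, adjusted p = 0.000199), from 65.3 to 80.3 CPM with a median of 72.7 in sham and from 78.9 to 108 with a median of 91.4 in TBI mice. The groups overlapped. In E3/Abca1+/- mice the leading genes beside Rps9 and Rpl7 were Rpl23 at 0.32 (adjusted p = 0.000103) and Rpl22 at 0.19 (adjusted p = 0.000196), both of the large subunit, and Rps26 at 0.25 (adjusted p = 0.00091). Rpl22 ran from 75.6 to 81.9 CPM with a median of 79.1 in sham and from 88.0 to 93.4 with a median of 89.6 in TBI mice, and the groups did not overlap. In E4/Abca1+/- mice they included, beside Rps9, Rps24 at 0.28 (adjusted p = 2.11e-05) and Rps18 at 0.31 (adjusted p = 3.39e-05).

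The stalk proteins, which bind the elongation factors, were all higher over all mice. Rplp0, the base of the stalk, had a log2 fold change of 0.33 (SE 0.09, adjusted p = 0.00188), Rplp1 0.21 (0.04, adjusted p = 2.05e-06) and Rplp2 0.30 (0.05, adjusted p = 1.22e-07). Rplp2 was called in every genotype but E4/Abca1+/+, where it was 0.23 (adjusted p = 0.118), and Rplp1 in E4/Abca1+/- alone, at 0.30 (adjusted p = 0.00244). Rplp0 was called in no genotype, with values of 0.18 to 0.44. Its values ran from 36.8 to 128 CPM in E4/Abca1+/+ and from 43.4 to 141 CPM in E4/Abca1+/- mice.

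Several members with roles beside the ribosome's core were also higher over all mice. Rpsa, which is known as a laminin receptor as well as a small subunit protein, had a log2 fold change of 0.12 (SE 0.03, adjusted p = 0.00131). Rps6, the protein that the kinases downstream of mTORC1 phosphorylate, had 0.32 (0.06, adjusted p = 8.09e-06). In E4/Abca1+/- mice it ran from 4.38 to 5.91 CPM with a median of 5.35 in sham and from 6.26 to 8.33 with a median of 7.31 in TBI mice, with no overlap. Fau and Rps27a are made as fusions with a ubiquitin-like protein and with ubiquitin, and rose by 0.44 (0.11, adjusted p = 0.000731) and 0.23 (0.09, adjusted p = 0.0387). Both were low, with means of 2.52 and 1.75 CPM.

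Paralogs were set beside their standard genes over all mice. Rps27l, a paralog of Rps27 induced by p53, had a log2 fold change of 0.31 (SE 0.06, adjusted p = 1.35e-05), against 0.26 (0.11, adjusted p = 0.0398) for Rps27. Rpl22l1 had 0.06 (0.04, adjusted p = 0.207) against 0.18 (0.02, adjusted p = 3.78e-10) for Rpl22, and Rpl7l1 0.06 (0.02, adjusted p = 0.0117) against 0.23 for Rpl7. Rpl36al had 0.14 (0.04, adjusted p = 0.00146) against 0.11 (0.09, adjusted p = 0.314) for Rpl36a, and Rps4l 0.26 (0.07, adjusted p = 0.00137) against 0.29 (0.03, adjusted p = 1.21e-10) for Rps4x. The difference within a pair was not tested. Among the copies that share sequence, Rps27rt had 0.26 (adjusted p = 1.01e-08), Rpl6l 0.25 (adjusted p = 4.15e-06), Rpl37rt 0.12 (adjusted p = 0.00195) and Rpl32l 0.25 (adjusted p = 0.122), beside 0.21 for Rpl6, 0.17 for Rpl37 and 0.24 for Rpl32. Rpl3, Rpl10 and Rpl26, whose paralogs were not analysed here, rose by 0.19, 0.25 and 0.22.

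Genes that work with the ribosome were counted in the same comparison over all mice, in which 29.0% of all genes rose and 24.3% fell. Of 23 other translation genes, most of which are known to start with a pyrimidine tract or to bind the ribosome, 18 rose and 0 fell, with a median log2 fold change of 0.12. The smallest p were those of Pabpc1, which binds poly(A) tails (0.31), and of the elongation factors Eef1a1 (0.29) and Eef1b2 (0.21). Of 32 ribosome biogenesis genes tested 3 rose and 6 fell, with a median of −0.01. The 3 that rose were Myc, a transcription factor (0.50), the nucleolar protein Ncl (0.08) and the helicase Ddx21 (0.10), and those that fell included Bop1 (−0.11), Ubtf (−0.09) and Rrn3 (−0.07), of which the last 2 serve RNA polymerase I. Of 17 mTORC1 pathway genes 1 rose, the translation inhibitor Eif4ebp1 (0.57), and 9 fell, among them Tsc1 (−0.16), Mtor (−0.14) and Rptor (−0.13). Of 77 mitochondrial ribosomal protein genes 10 rose, led by Mrps6 (0.27), and 4 fell, led by Mrpl3 (−0.10), with a median of 0.01.

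Markers of several cell types moved with injury in the same mice. All 11 microglia markers rose over all mice, with a median log2 fold change of 1.46, and their summed level was 406 to 671 CPM in sham and 789 to 1920 CPM in TBI mice. Of the astrocyte markers 5 of 5 rose, with summed levels of 1327 to 1999.9 CPM in sham and 2179.9 to 5385 CPM in TBI mice, and of the neuron markers 7 of 8 fell, with summed levels of 8232 to 9268 CPM and 5858 to 8296 CPM. Of the blood-derived and border macrophage markers 5 of 6 rose, from 3.99 to 21.9 CPM in sham and from 6.27 to 44.1 CPM in TBI mice, while Ccr2 and Ms4a7 were at 0 in some mice. Among the rest 2 of 5 oligodendrocyte, 0 of 2 oligodendrocyte precursor, 2 of 5 endothelial, 1 of 2 T cell and 0 of 2 red cell markers rose, and 1 T cell and 1 red cell marker fell. The part of these cell types in the higher ribosomal protein genes was not tested.

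Between the isoforms the ribosomal protein genes changed in both directions. Over all mice 14 of the 86 genes were higher in APOE4 than in APOE3 mice (background 8.03% of all genes) and 8 were lower (background 6.99%), with a median log2 difference of 0.00. The higher genes with the smallest p were Rpl7l1, a paralog of Rpl7 (0.18, SE 0.02, adjusted p = 6.4e-09), Rpl7 (0.12, adjusted p = 2.97e-05), Rpl6 (0.15, adjusted p = 0.000549), Rpl7a (0.14, adjusted p = 0.000579) and Rps9 (0.15, adjusted p = 0.00125). The lower genes included, after Rpl28, Rps27 (−0.35), Rps2 (−0.23) and Rps4l (−0.22), with adjusted p from 0.0216 to 0.0259. With libraries over the gap alone 6 genes were higher and 11 lower, and the background of that fit is not given here. Of the marker lists in this comparison, 4 of 5 oligodendrocyte markers, 1 of 11 microglia markers and 1 of 2 T cell markers were higher, 1 of 8 neuron markers was lower, and the other lists gave 0 calls. Their part was not tested.

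Rpl28 (gene 19943), a large subunit protein, had the greatest isoform difference of the 86 genes. In Abca1+/- sham mice it ran from 2.78 to 5.11 CPM with a median of 4.13 in APOE3 and from 0.854 to 1.71 with a median of 1.20 in APOE4 mice, and in Abca1+/- TBI mice from 3.14 to 5.17 with a median of 3.63 and from 1.06 to 1.60 with a median of 1.42. In Abca1+/+ sham mice it ran from 2.62 to 4.39 CPM with a median of 3.26 in APOE3 and from 1.22 to 3.14 with a median of 1.92 in APOE4 mice, and in Abca1+/+ TBI mice from 2.79 to 5.86 with a median of 3.48 and from 1.33 to 3.49 with a median of 1.94. The isoforms lay apart in Abca1+/- mice and overlapped in Abca1+/+ mice. The log2 fold change over all mice was −1.18 (SE 0.10, adjusted p = 1.88e-14, edgeR). By pairs of groups it was −1.66 (adjusted p = 3.19e-05) in Abca1+/- sham, −1.48 (adjusted p = 4.32e-05) in Abca1+/- TBI, −0.79 (adjusted p = 0.101) in Abca1+/+ sham and −0.79 (adjusted p = 0.326) in Abca1+/+ TBI mice. The difference between these values was not tested.

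Rpl28 lies on chromosome 7 (4792965 to 4794547), the chromosome of Apoe (19696244 to 19701310), where the targeted replacement was made. Rps9, which was higher in APOE4 mice, lies on it too (3703954 to 3706897). Of the 14 members on chromosome 7, 1 was higher and 3 were lower in APOE4 mice. Of the 72 members on other chromosomes 13 were higher and 5 lower. Calls over all genes were not counted by chromosome, so whether these counts exceed a background is not known. The part of these positions in the isoform differences was not tested.

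Between Abca1+/- and Abca1+/+ mice 40 of the 86 genes were higher (background 9.49% of all genes) and 6 were lower (background 8.39%), with a median log2 difference of 0.08 against 0.00 over all genes. With libraries over the gap alone 37 were higher and 3 lower, and the background of that fit is not given here. The higher genes with the smallest p included Rps3, which also repairs DNA (0.19, SE 0.02, adjusted p = 6.3e-10), Rps15 (0.20, adjusted p = 1.3e-08), Rpl8 (0.21, adjusted p = 2.35e-08) and Rpl37rt (0.25, adjusted p = 5.92e-08). Rps3 ran from 216 to 238 CPM with a median of 230 in E3/Abca1+/+ sham mice and from 242 to 275 with a median of 261 in E3/Abca1+/- sham mice. These 2 groups did not overlap, while in E4 sham mice the ranges of 228 to 247 and 235 to 275 did. The number of calls differed when Abca1 copies were compared by pairs of groups. Higher genes numbered 10 in E3 sham, 4 in E4 sham, 0 in E3 TBI and 16 in E4 TBI mice. Lower genes numbered 1, 0, 0 and 0 in the same order, and the median log2 differences were 0.06, 0.05, 0.05 and 0.17. The difference between the isoforms in these values was not tested.

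The lower genes were Rps29, Rpl5, which carries the small ribosomal RNA of the large subunit (−0.52, SE 0.09, adjusted p = 2.78e-05), Rpl35 (−0.28, adjusted p = 0.000422), Rpl10a (−0.29, adjusted p = 0.0034), Rps13 (−0.47, adjusted p = 0.0169) and, with a larger p than these 5, Rpl38 (−0.48, adjusted p = 0.0318). Rps13 was −0.05 with the libraries over the gap alone, and not past the threshold. The mean levels were low, at 6.20 CPM for Rps29, 3.91 for Rpl5, 7.89 for Rpl35, 3.44 for Rpl10a, 1.35 for Rps13 and 1.57 for Rpl38. The share of unique stretches was 64.2%, 6.16%, 4.91%, 11.9%, 17.0% and 47.9% in the same order. The part of shared sequence and of depth in these lower values was not tested. The mitochondrial ribosomal proteins shifted upward in Abca1+/- mice, with 41 of 77 genes higher and 0 lower (median 0.09). Of the other translation genes 6 were higher and 2 lower, of the ribosome biogenesis genes 5 and 1, and of the mTORC1 genes 1 and 2. The markers of microglia were higher for 6 of 11 genes and those of endothelium lower for 3 of 5, and the other lists gave 0 calls. The part of these cells was not tested.

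Rps29 (gene 20090, chromosome 12, 69157722 to 69159186), a small subunit protein, set 8 libraries apart. They held 26.8 to 38.8 CPM, while the other 50 held 1.01 to 5.95 CPM. The 8 were the male Abca1+/+ libraries under the gap (5367220 to 6984446), 2 in each of the 4 Abca1+/+ groups. The 8 male Abca1+/+ libraries over the gap had 1.37 to 3.12 CPM and the 7 female Abca1+/+ libraries under the gap 3.22 to 5.95 CPM. Rps29 was the only gene of the 15171 for which these 8 libraries lay above all the others, and no gene had them below. The log2 fold change of Abca1+/- against Abca1+/+ mice was −2.32 (SE 0.36, adjusted p = 3.58e-06) with them, −0.46 (adjusted p = 0.0114) without them and −0.21 (adjusted p = 0.303) with libraries over the gap alone.

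Rpl21 and Rpl26, both of the large subunit and chosen after their values were seen, had low values in some APOE3 mice. Rpl21 (chromosome 5, 146832890 to 146837032) was at 1.62 CPM in E3/Abca1+/+ sham mouse 8 and at 18.9 to 25.2 CPM in 5 others, all APOE3 mice, while the remaining 52 mice had 33.7 to 55.6 CPM. Rpl26 (chromosome 11, 68901566 to 68904534) was at 23.8 to 31.8 CPM in 7 APOE3 mice and at 42.3 to 71.5 CPM in the other 51. No APOE4 mouse lay below the gap in either gene. The isoform difference of Rpl26 was 0.27 (SE 0.07, adjusted p = 0.00656), and that of Rpl21 was 0.20 (0.09, adjusted p = 0.131).

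**Figure D5:**
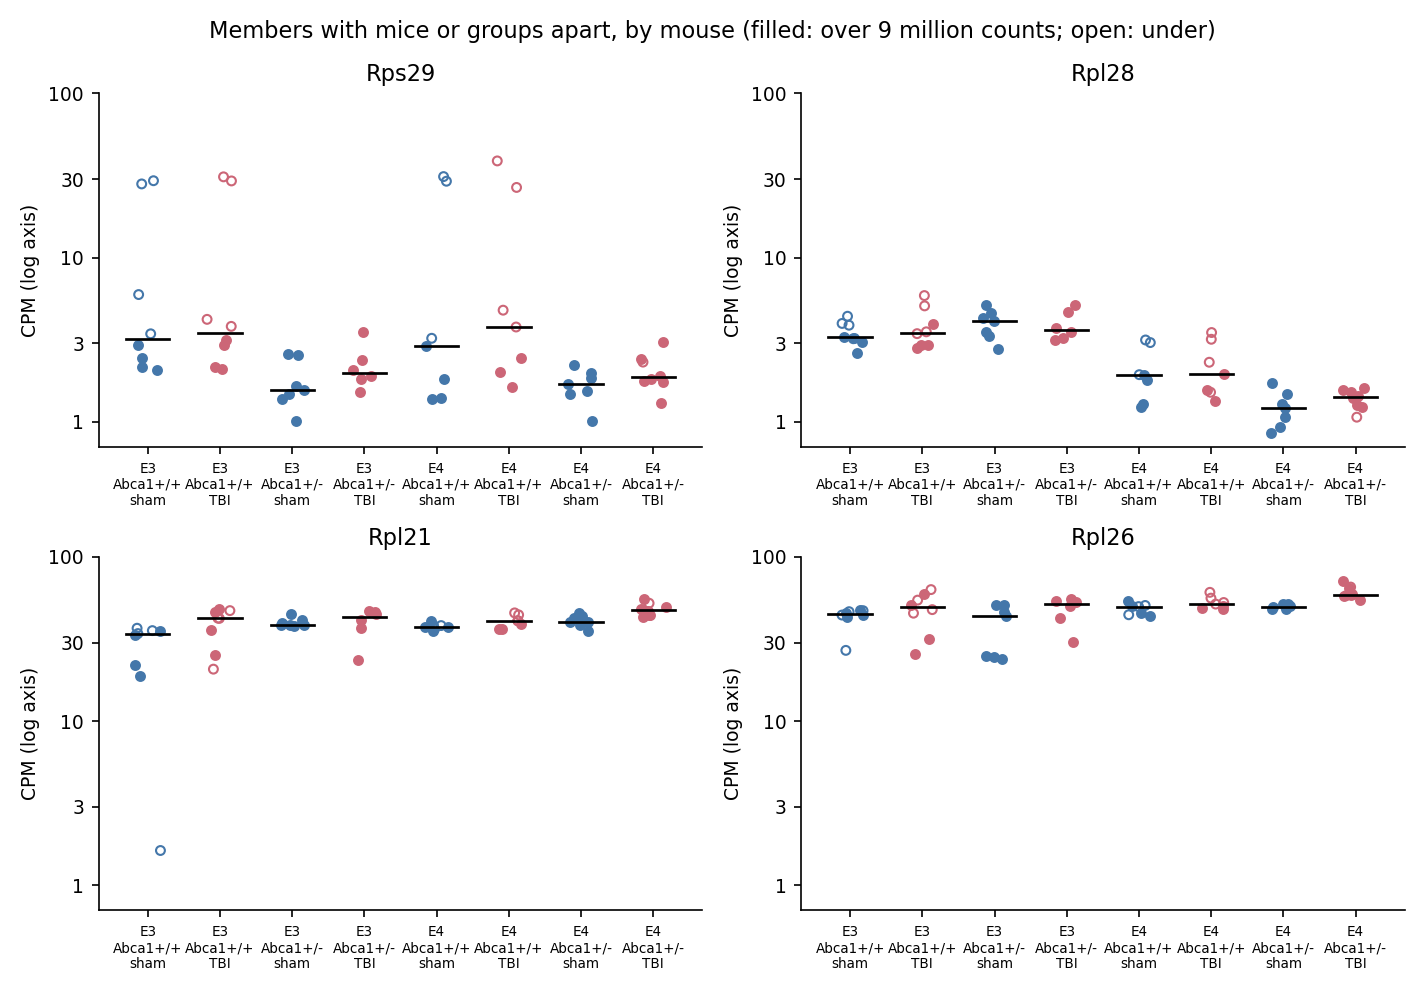
Levels of Rps29, Rpl28, Rpl21 and Rpl26 in CPM on a log axis, with a point for each mouse, blue for sham and red for TBI, filled for libraries over the gap in total counts and open for those under, and a line at each group's median. Rps29 shows 8 open points at 26.8 to 38.8 CPM, and Rpl28 lies lower in the E4 groups than in the E3 groups of Abca1+/- mice.

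Between the sexes 5 of the 86 genes (5.81%) were higher in females (background 5.21% of all genes) and 1 (1.16%) was lower (background 4.94%). The share of higher genes thus lay near the background. The higher genes were Rps7 (log2 difference 0.28, adjusted p = 0.00617), Rps25 (0.11, adjusted p = 0.0163), Rps9 (0.10, adjusted p = 0.0341), Rpl5 (0.26, adjusted p = 0.038) and Rps27l (0.16, adjusted p = 0.0469). The lower gene was Rps29 at −1.38 (adjusted p = 0.00777), which was −0.03 without the 8 male libraries described above. Without those libraries 2 genes were higher and 0 lower, and with libraries over the gap alone there were 0 calls in either direction. The background of these fits is not given here. Markers higher in females were 3 of 11 for microglia and 1 each for macrophages, oligodendrocyte precursors and red cells, and 1 neuron and 1 endothelial marker were lower. Their part was not tested.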

How the data were processed

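The deposited table holds counts of reads per gene for 58 mice, which the authors made with Subread 1.5.0 and featureCounts on mm10, per the submitters' processing notes. The annotation, the use of strand and the treatment of reads that fit several genes are not given in the sources used here. After 2 blank lines were removed, 15171 genes were tested with edgeR 4.0.16 (R 4.3.3) as quasi-likelihood fits with TMM factors (0.954 to 1.038), filterByExpr (0 genes removed) and Benjamini-Hochberg adjustment at 0.05. TBI against sham was fitted within each genotype. Contrasts over all mice came from the 8 group means, with sex as an added term for the contrast of sexes. DESeq2 1.42.0 was an alternative. Scripts were tested on simulated data.

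Members and lists were chosen with earlier results of these data known. Paralogs, stalk proteins, Rpsa, Fau, Rps27a and Rps6 were always named, as were the 5 members with the smallest p per comparison and direction and the 3 highest and lowest levels per length. Some members that this rule names are not reported here. Rpl4, Rpl15, Rpl21, Rpl38 and the calls of Rpl26 were named after their values were seen. Sequences and uniqueness came from RefSeq GRCm38.p6 and GENCODE M21.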

Additional observations from a re-analysis of the deposited data

Results flagged for a closer look

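In 15 quantities tested in each of 8 groups, 6 of 120 group ranges (5%) had a mouse far from the others of its group by Dixon's test at 95%, and chance gives about 1 in 20. Rplp0 was at 59.9 CPM in E3/Abca1+/- sham mouse 3, where the nearest mouse had 85.2 CPM, and at 74.7 CPM in E3/Abca1+/- TBI mouse 1, where the nearest had 103 CPM. Rplp1 was at 236 CPM in E3/Abca1+/- sham mouse 4, with the nearest at 211 CPM. Rpsa was at 77.8 CPM and Rpl26 at 27.0 CPM in E3/Abca1+/+ sham mouse 8, with the nearest at 63.9 and 42.8 CPM. Rps27a was at 3.24 CPM in E3/Abca1+/+ TBI mouse 7, with the nearest at 2.19 CPM.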

How the results depend on the processing

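The higher calls in E4/Abca1+/+ mice, 3 as reported, moved under the most alternatives. They were 13 with scaling by total counts, 6 with DESeq2's Wald test, 5 after thinning to the lowest total, 7 with sex as a covariate, 12 in a single fit over 58 mice, 5 with the filter within the groups of the fit, 0 with libraries over the gap alone, 1 without the 8 male Abca1+/+ libraries under the gap in total counts, and 2 to 13 when each mouse was left out in turn. The same leave-one-out ranges were 17 to 27 (23 reported) in E3/Abca1+/+, 14 to 31 (23) in E3/Abca1+/- and 45 to 52 (51) in E4/Abca1+/- mice, with 0 lower calls in each fit. With libraries over the gap alone there were 2 higher calls in E3/Abca1+/+ mice, 6 higher between isoforms (14 reported), 3 lower between Abca1 copies (6 reported), and 0 higher and 0 lower between sexes (5 and 1 reported). Between sexes there were 3 higher with scaling by total counts, and 2 higher and 0 lower without the 8 male libraries. Lower calls between isoforms were 3 after thinning (8 reported). For single named members 322 values kept direction and call and 33 lost the call, of which 16 with libraries over the gap alone, and none turned direction. Rpl28, Rps13 and Rps27 gave no value under the minimum of 10 counts in every mouse, and Rps13 none with DESeq2. The alternatives by depth and the filter within groups were chosen after seeing the data. The cause of these changes was not tested. Apart from some leave-one-out fits above, the share of all genes called under these alternatives is not given here. No paired analysis was possible because replicate numbers were given in accession order and pair no mice. Genes under 5 CPM had larger standard errors, which limits what can be called in them.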
